A study of Homo sapiens with 16 samples.

Results

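Thrombospondin-1 (THBS1), fibronectin (FN1) and 8 receptor genes that their proteins bind (CD47, ITGAV, ITGB1, ITGA5, ITGA2, ITGA6, LRP1 and SDC1) were followed in methylated RNA immunoprecipitation sequencing (MeRIP-seq) of 2 human prostate cancer cell lines. In MeRIP-seq, RNA fragments that carry N6-methyladenosine (m6A) are pulled down with an antibody (IP) and compared with untreated fragments (input), and a peak is a stretch where IP reads exceed the input. The lines were C4-2B, an enzalutamide-sensitive line, and MDV-R (MDVR in the sample labels), a resistant line made from C4-2B by serial passage in enzalutamide, a drug given for prostate cancer, and kept in it. Both lines had the genotype label WT and were harvested on day 3, with 4 IP and 4 input libraries per line, 16 in all. Each line is a single culture lineage, so that drug exposure and any other difference between the lines cannot be told apart, and nothing states whether replicates were separate cultures, so that p-values measure the spread between these libraries only.

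Members were all merged regions and peaks that overlap the GENCODE spans of the 10 genes on hg38. They came to 20 of the 36970 regions in the merged list and to 104 of the 191974 peaks in the 8 IP lists, 40 in C4-2B and 64 in MDV-R. Of the 20 regions, 16 lay wholly inside a span and 4 crossed its end, and 1 region held no peak in any list. THBS1 and FN1 were among the genes that the study selected on these same samples for a difference between the lines, so their values are a description and carry no test. The receptors were listed for what their proteins bind.

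The m6A mark is placed on nascent RNA by the METTL3-METTL14 methyltransferase, mostly within the motif DRACH (D is A, G or T; R is A or G; H is A, C or T), and it is known to be densest near stop codons, in 3′UTRs and in long internal exons. THBS1 is a secreted glycoprotein of the extracellular matrix that inhibits angiogenesis and activates latent TGF-β, and fibronectin is a matrix scaffold to which cells attach. Integrins are paired α and β chains that link the matrix to the cytoskeleton, CD47 is a cell surface receptor for the C-terminal part of THBS1, LRP1 takes THBS1 up into the cell, and SDC1 is a heparan sulfate proteoglycan that binds both ligands.

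The statistics deposited for each peak hold both parts of its fold enrichment, a ratio of IP pileup at the summit to a local background drawn from the input around it (each with 1 added), so that both could be recovered. IP tags are given scaled to 1000000 recovered IP fragments, written as tags per M, and the local background in units of the library average, which is 1. The local background follows the abundance of the transcript only approximately, is known only where a peak was called, and in bulk RNA fewer expressing cells and less RNA per cell cannot be told apart.

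IP depth was recovered as 0.318 to 0.414 M fragments per library. Input depth was 0.308 to 0.431 M fragments in C4-2B and 0.645 to 1.02 M in MDV-R, so that every MDV-R input was deeper than every C4-2B input, and input depth and line cannot be told apart. The lists held 13191 to 24746 peaks in C4-2B and 23880 to 30645 in MDV-R, and C4-2B replicate 1 stood apart as the smallest. The median log2 background over shared regions was 3.90 in MDV-R replicate 3 against 2.63 to 3.08 in the other MDV-R libraries and 3.46 to 3.74 in C4-2B, so results are given with and without these libraries where they change. Of the prostate luminal markers, KLK2, FOLH1, HOXB13 and STEAP2 had a region called in all lists of both lines, KLK3 and TMPRSS2 in 3 C4-2B lists and all 4 MDV-R lists, while KRT8 and KRT18 had no region. A bladder line is also named in the titles on the MDV-R side, where the cell line label was followed. Of 10 urothelial or bladder line markers, UPK2 and VIM had a region called in all lists of both lines and UPK3A in 2 C4-2B lists and all MDV-R lists. The other 7, KRT5, GATA3, CAV1 and AXL among them, had no region. Of 6 fibroblast markers, PDGFRB was called in 1 C4-2B list and all MDV-R lists, COL1A1 in 1 C4-2B list and 2 MDV-R lists, and 4 had no region.

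The summits that carry the comparison are shown here as they stand in hg38, read 5′ to 3′ on the strand of the gene. The first group holds coding exons, with any DRACH in capitals: exons 11 and 19 of 22 of THBS1 (chr15:39588970-39589030, with no DRACH in the window, and chr15:39593446-39593506, plus strand), whose regions were called in MDV-R alone, exon 42 of 46 of FN1 (chr2:215367932-215367992, minus strand), and exon 3 of 5 of SDC1 (chr2:20204086-20204146, minus strand), which was called in both lines and has no DRACH in this window.
THBS1 exon 11: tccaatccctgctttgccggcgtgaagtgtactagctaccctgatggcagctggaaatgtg
THBS1 exon 19: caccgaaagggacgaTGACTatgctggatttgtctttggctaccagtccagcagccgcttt
FN1 exon 42: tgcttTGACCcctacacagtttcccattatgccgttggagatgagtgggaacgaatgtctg
SDC1 exon 3: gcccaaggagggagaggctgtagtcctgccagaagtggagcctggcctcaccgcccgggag

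The second group holds the GGAC nearest to the summit in untranslated regions, in capitals, since GGAC is the core in which DRACH is most often methylated. The 3′UTR sites belong to regions called in all 8 lists: THBS1 (chr15:39595707-39595730, plus strand), ITGA5 (chr12:54395918-54395939, minus strand), ITGA6 (chr2:172504336-172504359, plus strand) and SDC1 (chr2:20202529-20202552, minus strand). The 5′UTR site of ITGA5 (chr12:54419206-54419229, minus strand) belongs to the receptor region called in MDV-R alone.
THBS1 3′UTR: tctgagcagtGGACtcaaaagcat
ITGA5 3′UTR: tgccacaaGGACttcctgtcca
ITGA6 3′UTR: caatccctgaGGACtgatttcaga
SDC1 3′UTR: ttctcgcataGGACctttccacca
ITGA5 5′UTR: ggtggccccaGGACagggaagagc

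GGAC lay within 50 nt of the strongest summit, on the strand of the gene, in 6 of the 12 exonic member regions, which is 50% against 46.3% of all 15733 exonic regions. On the opposite strand, 6 of the 12 member windows held it too, against 28.4% of all exonic regions, so the members showed no difference between strands. DRACH lay in 7 of the 12 windows, 58.3%, against 87.8% of all exonic regions. The 12 leave out the THBS1 region whose strongest summit lay in an intron just past exon 16. On the strand of the gene, its window held 1 GGAC and 4 DRACH. A match is a description of these letters and not a mapped site.

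Of the 10 genes, 7 had at least 1 merged region and 3 (CD47, ITGAV and ITGA2) had no region and no peak in any of the 8 lists. A gene without a peak gives no level in these files. Regions were classed by their strongest summit in the canonical transcript of the gene, or by their middle for the 1 region without a peak. Of the 20, 4 fell in a 3′UTR, 5 in coding sequence, 3 in a 5′UTR and 5 in an intron. The other 3 lay outside that transcript. By calls, 6 regions were found in all 8 lists, 5 in every MDV-R list but no C4-2B list, 0 in the reverse, and 8 in some other set of lists. Over all 36076 regions called in any list, 25.9% were found in all 8 lists, 3.68% in every MDV-R list but no C4-2B list, and 1.22% in the reverse. The 5 regions of MDV-R alone were 3 of THBS1, 1 of FN1 and 1 of ITGA5. THBS1 and FN1 were selected for such a pattern, so 1 of the 14 receptor regions with a call stands beside that background.

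**Figure D1:**
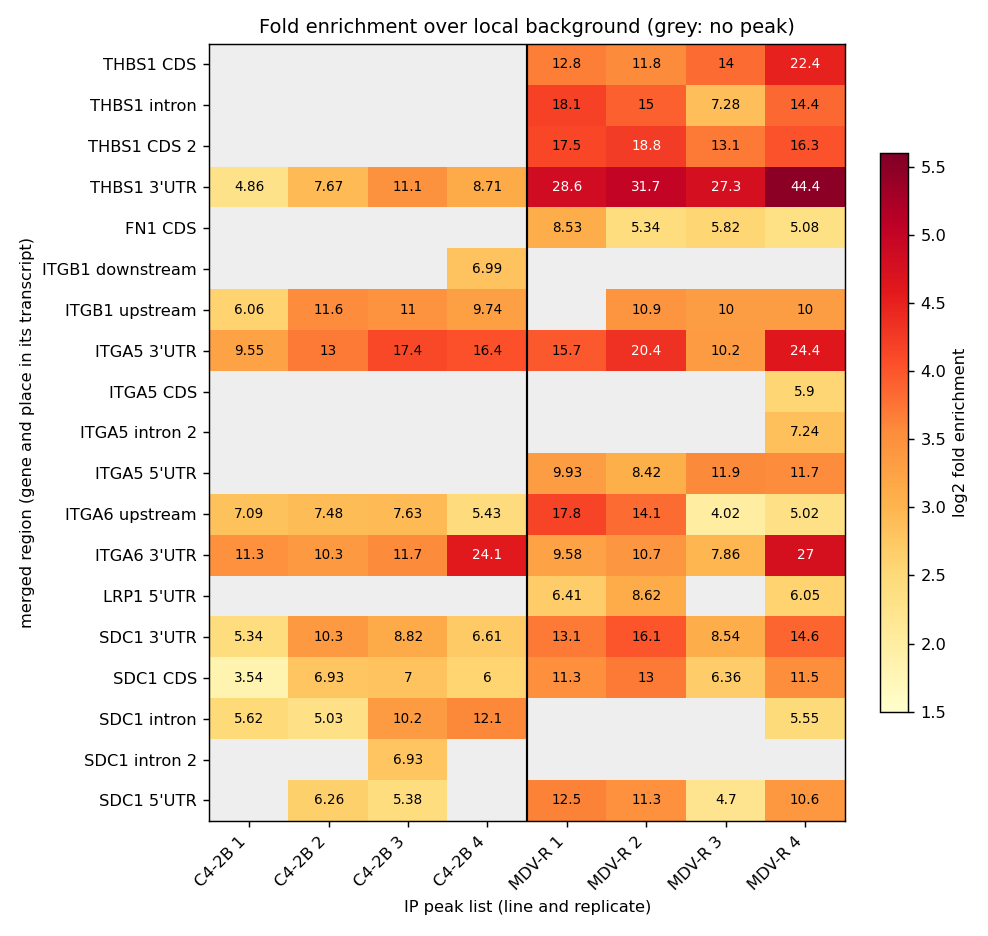
Fold enrichment over local background of the strongest peak in the 19 member regions with a peak (rows) in the 8 IP lists (columns, line and replicate), with the colour on a log2 scale and grey where no peak was called. The THBS1 rows other than the 3′UTR, the FN1 row and the ITGA5 5′UTR row are filled in the 4 MDV-R lists and empty in C4-2B, while the SDC1 and ITGA6 3′UTR rows are filled in all 8.

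THBS1 was called before the stop codon in MDV-R alone, with summits in or next to coding exons, and in its 3′UTR in both lines. Each C4-2B list held 1 peak in the gene (chr15:39581079-39599466, plus strand), in the 3′UTR, while the MDV-R lists held 4, 5, 4 and 5. FSIP1 is annotated across the gene and THBS1-AS1 across its first region, and the peaks carry no strand, so that reads of these genes cannot be told apart.

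The first MDV-R region (chr15:39587561-39589438) spanned 4 exons from exon 9, with its summit in exon 11 of 22, 1826 nt before the stop codon along the spliced transcript. The region was 33.7% exonic by length. Its fold enrichment was 12.8, 11.8, 14.0 and 22.4 in MDV-R replicates 1 to 4. Replicate 4 was the highest, with a local background of 2.04 against 6.04 to 7.51 in the other libraries. The IP tags behind it were 35, 37, 49 and 35, which is 109 ± 11.1 per M (SD, n = 4). The IP level thus varied less among the 4 libraries than the fold enrichment did.

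The second region (chr15:39590356-39592042) touched 3 exons from exon 14, with 22.9% of its length exonic. Its strongest summit, of replicate 1, lay 10553 nt from the transcript start, in an intron just past coding exon 16. That exon spans 10426 to 10544 nt. The strongest summits of replicates 2, 3 and 4 lay inside it, at 10520, 10494 and 10429 nt. Fold enrichment of the strongest peak was 18.1, 14.98, 7.28 and 14.4 in the 4 MDV-R libraries. It was lowest in replicate 3, where the local background was 13.1 against 4.05 to 6.19 in the others. Replicates 2 and 4 also held a separate, weaker peak toward the start of this region, with fold enrichments of 5.64 and 4.74. The third region (chr15:39592984-39593761), 64.3% exonic, with its summit in exon 19 and 438 nt before the stop codon, had fold enrichments of 17.5, 18.8, 13.1 and 16.3. Summits of this region lay within 48 nt of each other in the 4 lists. Across the 3 regions, the within-list percentile of −log10 p of the strongest peak ran from 58.0 to 80.6. The strongest peaks were thus of upper middle strength in MDV-R.

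The THBS1 3′UTR region (chr15:39595216-39596432) had its strongest summit in exon 22, 350 nt past the stop codon, and its summits in the 8 lists lay within 57 nt. IP tags per M were 723.7, 872.5, 925.6 and 932.4 in C4-2B and 213.6, 204.7, 190.8 and 173.3 in MDV-R. Every C4-2B library was above every MDV-R library, with means of 864 ± 97 and 196 ± 17.6 (SD, n = 4 each). The local background was 149.8, 117.2, 84.8 and 114.9 times the library average in C4-2B and 4.83, 3.54, 5.63 and 1.63 in MDV-R, again without overlap. The fitted difference of MDV-R minus C4-2B was −2.14 on the log2 scale for IP tags and −5.01 for the local background, or 4.41-fold and 32.3-fold lower.

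Fold enrichment of the same region went the other way, since the background fell further than the IP. It was 4.86, 7.67, 11.1 and 8.71 in C4-2B and 28.6, 31.7, 27.3 and 44.4 in MDV-R, 4.18-fold higher in MDV-R, with no overlap. As a description of rank over the 9327 regions called in all 8 lists, 2 regions had a more negative difference in local background and 5 had a larger difference in fold enrichment. The THBS1 3′UTR stood at the 98.6 to 99.9 percentile of −log10 p in C4-2B and at 91.7 to 96.4 in MDV-R. It was among the strongest peaks of every list.

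The level that a summit has to reach depends on the background around it. Over the background of the THBS1 3′UTR, at the lowest −log10 p of each list, a summit would need 245, 186, 147 and 183 IP tags per M to be called in C4-2B replicates 1 to 4, against 13.3 to 24.8 in MDV-R. The 3 THBS1 regions called in MDV-R alone held 89.4 to 136.5 IP tags per M in that line. Neither the IP level nor the background over the coding exons is known for C4-2B, where no peak was called, and at the 3′UTR the IP level was 4.41-fold higher in that line. The part of the background in the calls was not tested.

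**Figure D2:**
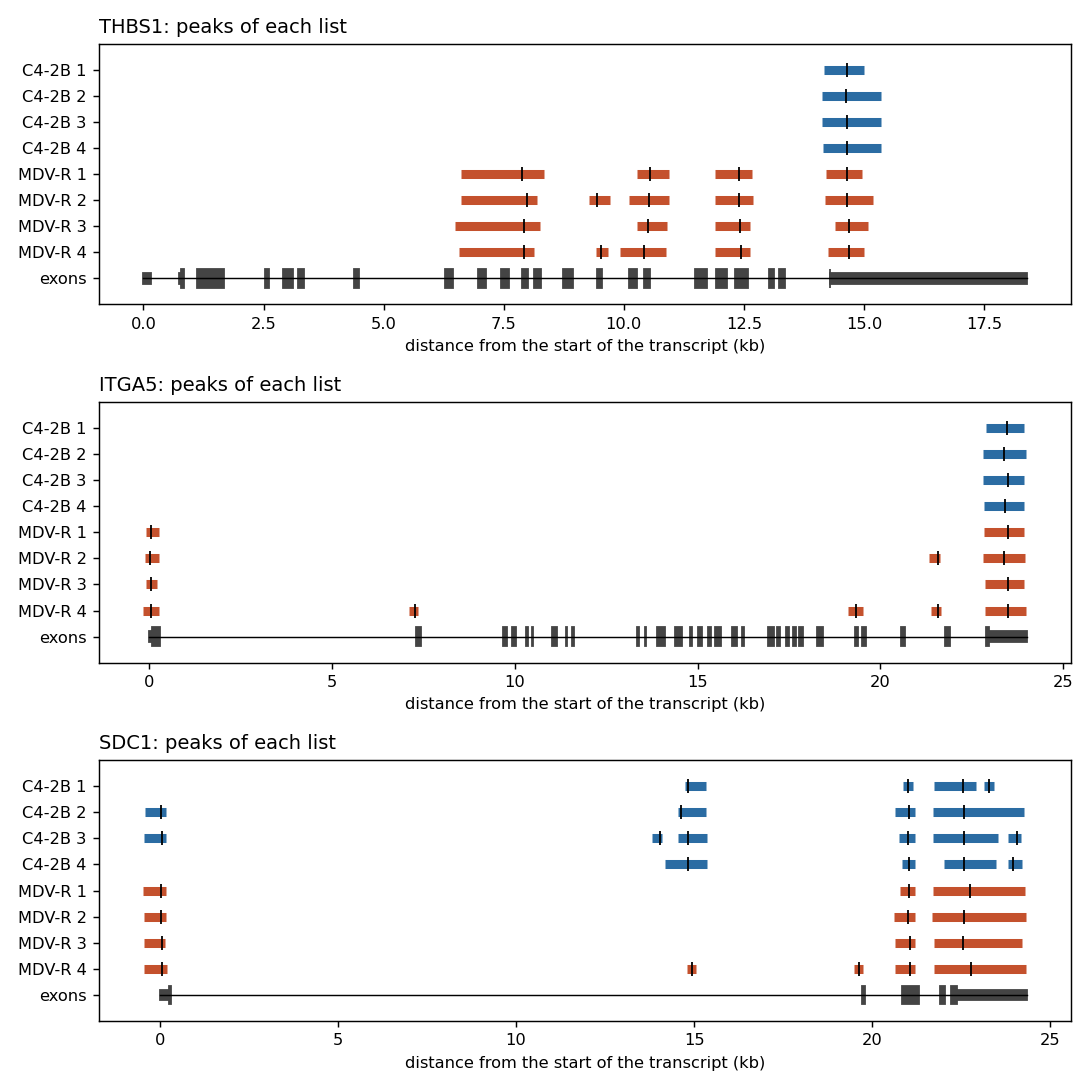
Peaks of THBS1, ITGA5 and SDC1 in the 8 IP lists (blue, C4-2B; orange, MDV-R; a tick marks the summit) along the distance from the start of the canonical transcript in kb, above its exons, with coding parts drawn taller than untranslated parts. THBS1 has 1 C4-2B peak per list at its 3′ end and 4 or 5 MDV-R peaks, ITGA5 has a called peak at its start in the 4 MDV-R lists only, and SDC1 is called at its 3′ end in all 8.

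FN1 had 1 region (chr2:215367687-215368400), with its summit in exon 42 of 46, 515 nt before the stop codon. The region was 23.1% exonic by length. It was called in the 4 MDV-R lists with fold enrichments of 8.53, 5.34, 5.82 and 5.08 and in no C4-2B list. IP tags per M were 68.4 ± 8.41 (SD, n = 4), and the percentile of −log10 p was 23.4 to 46.0, so the FN1 peak ranked below the THBS1 regions in each MDV-R list. The local background was 6.04 to 13.1 times the library average. No FN1 value is known for C4-2B.

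Among the integrins, ITGA5 and ITGA6 had more IP signal in MDV-R, and ITGB1 had weak peaks near the start of its canonical transcript. ITGA5 is the α chain that pairs with ITGB1 as the main fibronectin receptor. Its 3′UTR region (chr12:54395282-54396463), with the summit 404 nt past the stop codon in exon 30 of 30, was called in all 8 lists. IP tags per M were 245.3, 245.6, 296.3 and 292.9 in C4-2B and 414.9, 480.8, 369.5 and 343.9 in MDV-R. Every MDV-R library was above every C4-2B library, and the log2 difference was 0.57 ± 0.17 (SE; limma adjusted p = 0.0040), or 1.48-fold. In this fit the SE of IP tags was common to all regions and does not give the spread of a single region.

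The ITGA5 background was 23.3, 17.1, 14.9 and 16.4 times the library average in C4-2B and 25.4, 21.2, 41.3 and 14.5 in MDV-R, and the groups overlapped. Its difference was 0.43 on the log2 scale (limma adjusted p = 0.50), and with each list centred on its median it was 0.92 (limma adjusted p = 0.023). Fold enrichment averaged 14.1 ± 3.56 for C4-2B against 17.6 ± 6.12 for MDV-R (SD, n = 4 each), a log2 difference of 0.29 (95% interval −0.41 to 0.99, limma adjusted p = 0.60). When IP signal was scaled by the average coverage of the library in place of its number of fragments, an alternative chosen after the data were seen, the IP difference was 0.46 and did not pass (limma adjusted p = 0.063).

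The ITGA5 5′UTR region (chr12:54418992-54419478), 43 nt from the start of the transcript in exon 1, was called in every MDV-R list and no C4-2B list. Fold enrichment was 9.93, 8.42, 11.9 and 11.7, on 21, 16, 28 and 20 IP tags, and the summits lay within 23 nt. The two-sided Fisher's exact test of its calls gave p = 0.0286, which is the smallest that 4 lists against 4 allow, and an adjusted p of 0.584 over all called regions, where the lowest was also 0.584 and 1766 regions had an unadjusted p under 0.05. With each list limited to as many peaks as the smallest list holds, it was no longer called in all MDV-R lists, and neither was FN1. Other ITGA5 regions were called in 1 MDV-R list each, in exon 26 and near exon 2 in replicate 4, and 1 further region held no peak. GPR84-AS1 overlaps all 5 regions of the gene.

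ITGA6 encodes the α chain of laminin receptors, which also binds THBS1. Its 3′UTR region (chr2:172503867-172504854), with the summit 270 nt past the stop codon in exon 26 of 26, held 143.3, 155.3, 186.3 and 170.1 IP tags per M in C4-2B and 306.5, 304.0, 285 and 282.6 in MDV-R. The lines did not overlap, and the log2 difference was 0.85 ± 0.17 (SE; limma adjusted p = 6.1e-06), or 1.81-fold. The background rose alongside, from 9.99, 13.2, 13.8 and 4.47 to 31.4, 26.3, 41.3 and 9.90, by 1.34 on the log2 scale, which did not pass (limma adjusted p = 0.071) but passed with the lists centred (1.83, limma adjusted p = 0.026). MDV-R replicate 4 lay within the C4-2B range of background.

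Fold enrichment of the ITGA6 3′UTR was 11.3, 10.3, 11.7 and 24.1 in C4-2B and 9.58, 10.7, 7.86 and 27.0 in MDV-R. Replicate 4 was the highest in each line, and the other libraries of both lines lay within 7.86 to 11.7. The log2 difference was −0.15 (95% interval −0.85 to 0.56, limma adjusted p = 0.80). PDK1-AS1 overlaps this region.

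A second ITGA6 region (chr2:172426566-172428078) lay across the start of the gene and was called in all 8 lists. It held 26.7, 25.4, 27.5 and 18.9 IP tags per M in C4-2B and 74.3, 68.2, 82.1 and 45.3 in MDV-R, without overlap. The log2 difference in IP tags was 1.44 ± 0.17 (SE; limma adjusted p = 2.0e-15), the largest of the 5 receptor regions tested. That SE was common to all regions and does not hold the counting error of this region. With each list centred on its median, the difference was 1.46 ± 0.20 (SE; limma adjusted p = 0.00019). C4-2B peaks rested on 6 to 11 tags, so that counting error is large in that line.

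The background of that region was at the library average, the lowest value that the peak caller uses, in all 4 C4-2B libraries and 1.35, 2.02, 22.5 and 8.66 in MDV-R. The log2 difference of 2.26 (limma adjusted p = 0.023) was thus taken against a floor and not against a measured level. That call was lost without C4-2B replicate 1 (limma adjusted p = 0.080), without MDV-R replicate 3 (log2 difference 1.52, limma adjusted p = 0.055) and without MDV-R replicate 4 (limma adjusted p = 0.12). The strongest summits of the 8 lists were spread over 1069 nt, and those of MDV-R replicates 3 and 4, where the background was high, lay downstream of those of replicates 1 and 2, as did those of C4-2B replicates 2 and 3. The strongest summit of all lay 724 nt upstream of the canonical transcript, so that lists compare positions outside and inside it. The non-coding gene ENSG00000226963 also overlaps the region. Fold enrichment was 17.8 and 14.1 in MDV-R replicates 1 and 2 but 4.02 and 5.02 in replicates 3 and 4, against 5.43 to 7.63 in C4-2B. The log2 difference of 0.30 did not pass (95% interval −0.40 to 1.00, limma adjusted p = 0.59).

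ITGB1, the β chain shared by ITGA5, ITGA2 and ITGA6, had most of its peaks in a region (chr10:32958635-32960231) whose strongest summit lay 641 nt upstream of the canonical transcript, inside the longer span of the gene and over ITGB1-DT, a divergent non-coding gene. Calls came from 4 lists of C4-2B but 3 of MDV-R, with fold enrichments of 6.06, 11.6, 10.97 and 9.74 in C4-2B and 10.9, 10.0 and 10.0 in MDV-R replicates 2 to 4. IP tags numbered 12 to 27 per list, and the strongest summit of C4-2B replicate 4 lay more than 1000 nt from the others. In the fit that admits regions called in at least 3 lists of each line, IP tags were lower in MDV-R by a log2 difference of −0.50 (limma adjusted p = 0.0496), and fold enrichment differed by 0.15 (limma adjusted p = 0.81). A region at the 3′ end, in the 3′UTR of another ITGB1 transcript, was called in C4-2B replicate 4 alone on 8 tags.

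Among the other receptors, SDC1 was called widely in both lines and LRP1 weakly in MDV-R. SDC1 had 4, 4, 6 and 4 peaks in the C4-2B lists and 3, 3, 3 and 5 in the MDV-R lists. Its 3′UTR region (chr2:20200807-20203454), with the summit 220 nt past the stop codon in exon 5 of 5, held 289.0, 304.9, 333.0 and 311.8 IP tags per M in C4-2B and 328.2, 415.7, 268.1 and 229.3 in MDV-R. The C4-2B values lay inside the MDV-R range, and the log2 difference was −0.03 (95% interval −0.37 to 0.30, limma adjusted p = 0.92).

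The SDC1 3′UTR background averaged 41.8 ± 11.1 for C4-2B against 24.9 ± 7.78 for MDV-R (SD, n = 4 each), a log2 difference of −0.76 (limma adjusted p = 0.21). Fold enrichment was 5.34, 10.3, 8.82 and 6.61 in C4-2B and 13.1, 16.1, 8.54 and 14.6 in MDV-R, with MDV-R replicate 3 inside the C4-2B range. The log2 difference was 0.76 (95% interval 0.06 to 1.46, limma adjusted p = 0.17). Without MDV-R replicate 3 it was 0.95 and passed (limma adjusted p = 0.042), along with 21.5% of all regions, 2017 against 318 with that library.

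The SDC1 coding region (chr2:20203925-20204531) in exon 3, 609 nt before the stop codon, followed the same pattern. IP tags per M averaged 195 ± 33.2 for C4-2B against 209.9 ± 23.6 for MDV-R (SD, n = 4 each), a log2 difference of 0.12 (limma adjusted p = 0.65). Fold enrichment was 3.54, 6.93, 7.0 and 6.0 in C4-2B and 11.3, 13.0, 6.36 and 11.5 in MDV-R, a log2 difference of 0.85 (95% interval 0.14 to 1.55, limma adjusted p = 0.13). Without MDV-R replicate 3 it was 1.07 and passed (limma adjusted p = 0.023), again among that 21.5% of regions. The local background of that library at this region was 35.7 against 16.2 to 17.3 in the other MDV-R libraries, and its part in the result was not tested.

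An intronic SDC1 region (chr2:20209765-20210961) went the other way in its calls, with 4 C4-2B lists and MDV-R replicate 4, and the exact Fisher p was 0.143 (adjusted p = 0.997). Fold enrichment there was 5.62, 5.03, 10.2 and 12.1 in C4-2B and 5.55 in the MDV-R list, on 7 tags. The 5′UTR region of SDC1 (chr2:20224878-20225596), 44 nt from the transcript start, was called in C4-2B replicates 2 and 3 and in 4 MDV-R lists (exact Fisher p = 0.429), with fold enrichments of 6.26 and 5.38 in C4-2B and 12.5, 11.3, 4.70 and 10.6 in MDV-R. A small intronic region was called in C4-2B replicate 3 alone.

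LRP1, the endocytic receptor, had 1 region at its 5′UTR (chr12:57128329-57128866), 118 nt from the transcript start in exon 1 of 89, in a stretch that STAT6 also overlaps. It was called in MDV-R replicates 1, 2 and 4 with fold enrichments of 6.41, 8.62 and 6.05 on 8, 14 and 14 tags, and in no C4-2B list (exact Fisher p = 0.143). These peaks stood at the 12.7 to 35.7 percentile of −log10 p in their lists.

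**Figure D3:**
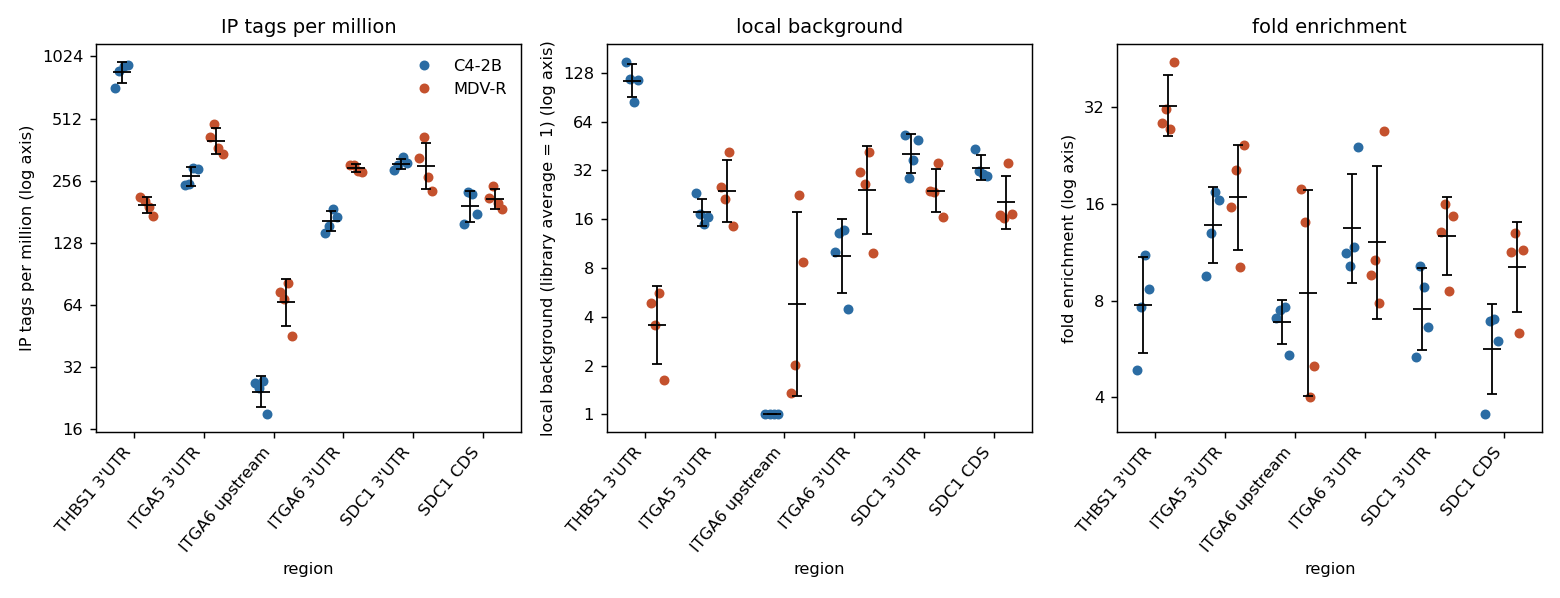
IP tags per M, local background (library average 1) and fold enrichment, each on a log axis with base 2, in the 4 C4-2B (blue) and 4 MDV-R (orange) libraries for the 6 member regions called in all 8 lists, with the mean of the log2 values and 1 SD in black. IP signal of ITGA5 and ITGA6 is higher in every MDV-R library while the fold enrichments of both lines overlap, and THBS1 falls in IP and more in background.

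Set against all regions, the ITGA5 and ITGA6 regions lay high in IP tags, and THBS1 lay far out in IP tags, background and fold enrichment. The SDC1 regions passed in no measure with all libraries kept. The fit covered the 9327 regions called in all 8 lists, among them 5 of the 15 receptor regions. The remaining 10 receptor regions had no such comparison. For fold enrichment, 3.41% of regions were higher and 0.225% were lower in MDV-R, 318 and 21 regions, and the median log2 difference was 0.44. With the lists centred on their medians the split was 79 higher and 167 lower, so that these counts depend on a shift of whole lists. Of the 5 receptor regions 0 passed in limma, and 2, both of SDC1, had an unadjusted p under 0.05, as had 25.3% of all regions. Relative to the median of all regions, ITGA5 and both ITGA6 regions lay lower (−0.15, −0.14 and −0.58), both SDC1 regions lay higher (0.32 and 0.41), and THBS1 lay 1.63 higher.

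For IP tags per M, 14.3% of regions were higher and 19.3% were lower in MDV-R, and the median difference was −0.04. Of the 5 receptor regions, 3 (ITGA5 and both of ITGA6) were higher and 0 were lower, and all 3 passed with centred lists too (limma adjusted p = 0.00039, 2.1e-05 and 0.00019 for ITGA5, the ITGA6 3′UTR and the ITGA6 start), where 23.3% of all regions were higher and 27.0% lower. Scaling by average coverage gave 778 higher and 1950 lower regions against 1334 and 1799. For the local background, 1.66% of regions were higher and 11.0% were lower, with a median of −0.48, and centring gave 555 higher and 643 lower against 155 and 1023. The ITGA6 start region was higher, and 2 of the 5 receptor regions had an unadjusted p under 0.05, as had 30.3% of all regions. Relative to the median the background was 0.91 higher at ITGA5, 1.83 higher at the ITGA6 3′UTR, 2.75 higher at the ITGA6 start against the floor in C4-2B, and −0.28 and −0.23 at SDC1, against −4.53 at THBS1.

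**Figure D4:**
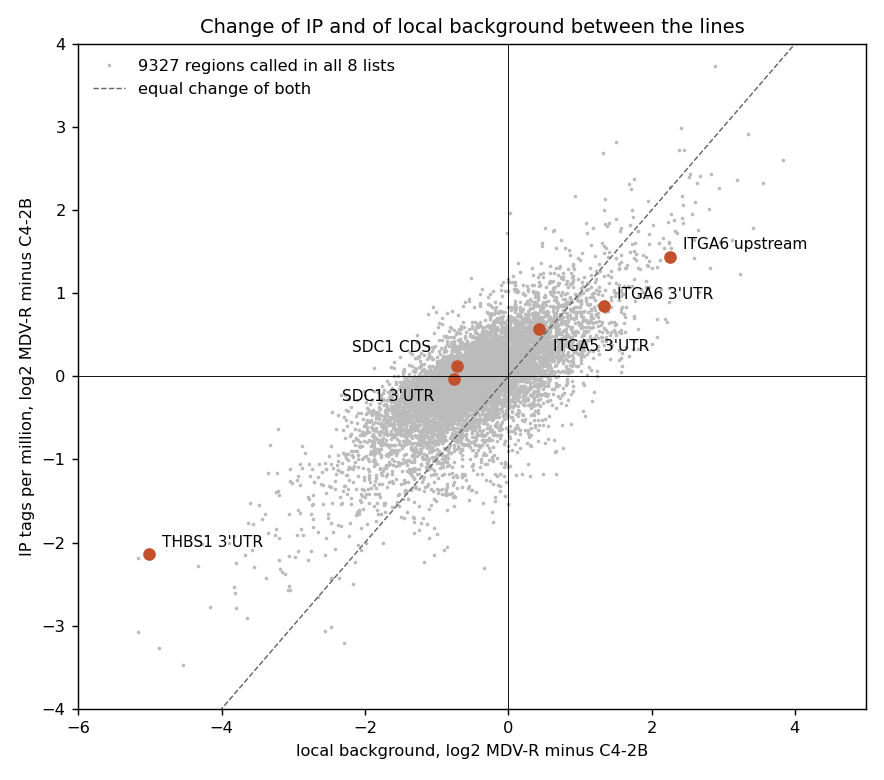
Log2 difference (MDV-R minus C4-2B) of the local background (x axis) and of IP tags per M (y axis) for the 9327 regions called in all 8 lists (grey), with the 6 member regions in orange and a dashed line where both change alike. The ITGA6 and ITGA5 regions lie at higher IP and background, SDC1 near no change in IP, and THBS1 far to the left at −5.01 in background and −2.14 in IP.

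Other genes of the matrix, its receptors and their adaptors were counted from a list of 58, of which 38 had a merged region over their span and 20 had none. In THBS3, THBS4, ITGAE, ITGB3 and FERMT2, every such region had its summit placed in another gene. The spans held 97 regions, 24 of them called in all 8 lists in 16 genes. Of these, the regions in the spans of ITGA1 and ITGAE had their summits in the coding sequence of PELO and HASPIN, which leaves 14 genes. Of the 95 regions called in any list, 2 were called in every MDV-R list but no C4-2B list, beside 3.68% of all called regions. They were 1 in an intron of BCAR1, an adaptor of integrin signalling, and 1 within the span of FERMT2, an integrin activator, where the summit fell in a non-coding gene. The reverse was found in 1, in an intron of LAMA1, a laminin chain, beside 1.22% of all called regions.

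For fold enrichment, 0 of the 24 regions passed in limma and 8 had an unadjusted p under 0.05, beside 25.3% of all regions, with a median of 0.56 against 0.44 for all regions. The 6 genes with the lowest adjusted p were TNC (0.95, limma adjusted p = 0.090), LAMC1 (0.94, 0.095), PTK2 (0.87, 0.12), DAG1 (0.86, 0.12), BCAR1 (0.84, 0.13) and SRC (0.83, 0.13), each given as a log2 difference with its limma adjusted p. For IP tags, 3 regions were higher and 8 lower, beside 14.3% and 19.3% of all regions, with a median of −0.22. The 8 were 5 regions of BCAR1 (−0.76 to −0.44) and 1 each in LAMC1, PXN and the span of ITGAE. The 3 were those of TNC (1.30), a matrix glycoprotein, THBS2 (0.65), the nearest paralog of THBS1, and ITGA2B (0.60), a platelet integrin chain. The ITGA2B region had its summit in an intron. For the local background 0 were higher and 5 lower, beside 1.66% and 11.0% of all regions, with a median of −0.87 against −0.48. The 5 lay in BCAR1, PXN and the span of ITGAE.

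The regions most like the THBS1 3′UTR were sought by the distance between their 16 log2 values (8 of IP tags and 8 of local background, each set centred on its own mean). Over the 9327 regions, the nearest genes were ADAMTS1 (distance 1.03), S1PR3 (1.30), MALT1 (1.57), ZNF91 (1.69) and an intronic region of the non-coding gene ENSG00000229491 (1.95), against a median distance of 7.25 over all regions. ADAMTS1, a secreted metalloproteinase, had log2 differences of −2.20 in IP tags, −5.17 in local background and 2.41 in fold enrichment. S1PR3, a receptor for sphingosine-1-phosphate, had −1.94, −4.68 and 1.96. No receptor of THBS1 was among the 5 nearest. Receptor genes held only 5 of the 9327 regions, so that this search says little about them.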

How the data were processed

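Reads were mapped by the authors with STAR 2.7.0 (hg38, GENCODE) and filtered in SAMtools 1.10, and MACS2 3.0.0a6 compared every IP with its input at a genome size of 300 Mb, so that each list holds 1 replicate. For each peak the deposited lists give a fold enrichment (a ratio), −log10 p and −log10 q values and a score. A deposited merged list gives 36970 regions without values, and how it was merged is not given in the sources used here. Of all peaks, 8.59% overlap none of its regions and 894 regions overlap no peak. The authors' differential test on read counts was not run here.

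Whole IP tags and the local background were solved from fold enrichment and −log10 p (tolerance 0.004), in 99.993% to 100% of the peaks of a list. The steps of the background gave fragment lengths of 239 to 293 nt and, with the stated genome size, the depths. They are a reconstruction, and the stated extension of 100 nt was not used. A region was called where at least 1 bp of a peak overlapped it, and it took the values of its peak with the highest −log10 p. Summits were placed with GENCODE release 44, in 1-based coordinates. Calls were tested by Fisher's exact test (two-sided, 4 lists against 4), and log2 values by limma 3.58.1 (R 4.3.3) without a replicate block over all regions called in all 8 lists, with Benjamini-Hochberg adjustment and a threshold of 0.05. For fold enrichment and IP tags limma shared 1 variance over all regions, since shifts of whole lists dominate the spread, so that lists were also centred on their medians. The recovery and the fit were tested on simulated data. Sequences were read from hg38 (Python 3.11.15, pysam 0.24.0).

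All member regions are named. Genes of the pathway list are named where called in 4 of 4 lists of 1 line and 0 of 4 of the other, or, up to 6, by the lowest adjusted p for fold enrichment, and the IP calls by name were added after their values were seen. Members, lists and tests were chosen with earlier results of these data known. Other settings were peaks kept from a −log10 q of 5, lists limited to the smallest, an overlap of 50%, an own union of lists, other fits and scalings, and leaving out each library. Some markers of the luminal list are not reported here.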

Additional observations from a re-analysis of the deposited data

Results flagged for a closer look

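Within groups of 4 libraries, the highest or lowest value stood far from the other 3 (by Dixon's ratio) for 5 values of 60 groups examined, and chance flags about 1 group in 20. For the ITGA6 3′UTR, fold enrichment was 24.1 in C4-2B replicate 4 and 27.0 in MDV-R replicate 4, each above the other libraries of its line. Local background at the SDC1 coding region was 43.3 in C4-2B replicate 1 and 35.7 in MDV-R replicate 3. At the SDC1 5′UTR it was 26.3 in MDV-R replicate 3. MDV-R replicate 3 also had the highest median background of the 8 lists.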

How the results depend on the processing

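The 5 member regions called in MDV-R alone became 3, all of THBS1, when lists were limited to the size of the smallest, and were 5 to 6 when each library was left out, LRP1 joining without MDV-R replicate 3 and the SDC1 intron region counting for C4-2B without MDV-R replicate 4 (5 in MDV-R alone then). No receptor region differed in fold enrichment under other settings than leaving out a library, where the count ran from 0 to 2, both of SDC1 without MDV-R replicate 3. Receptor regions that differed in IP tags numbered 3 to 4 on leaving out a library, ITGB1 joining without MDV-R replicate 1. Those that differed in local background numbered 1, against 2 with the replicate block, 3 with centred lists, 0 among regions called in at least 3 lists of each line, and 0 to 2 on leaving out a library: 0 without C4-2B replicate 1, 2 lower at SDC1 without MDV-R replicate 3 (31.0% of all regions were then lower), and the ITGA6 3′UTR in place of the start region without MDV-R replicate 4. Signs turned for fold enrichment at ITGA5 (−0.11) and the ITGA6 start region (−0.10) with centred lists, at the latter on leaving out a library (−0.06 without MDV-R replicate 1, up to 0.66), and at the ITGA6 3′UTR (−0.53 to 0.13, above 0 without C4-2B replicate 4 and, at 0.06, without MDV-R replicate 3), and for IP tags at the SDC1 3′UTR (−0.18 to 0.10, above 0 without MDV-R replicate 3, at 0.03, or 4, and at 0.0 without C4-2B replicate 3). The cause was not tested. Over all regions, leaving out a library moved the counts for fold enrichment from 318 higher and 21 lower to between 23 (without MDV-R replicate 2) and 2017 (without MDV-R replicate 3) higher and 3 and 79 lower, for IP tags from 1334 and 1799 to between 1084 and 1643 higher and 1453 and 2954 (without C4-2B replicate 1) lower, and for background from 155 and 1023 to between 77 and 146 higher and 401 and 2908 lower. Over regions, same-numbered libraries of the lines did not deviate together (correlations between −0.075 and 0.044). A shift of a whole library drops out of such a correlation, so it does not settle whether numbers pair libraries. The replicate block left the 5 regions, the 0 in fold enrichment and the 3 in IP tags at the same counts. A summit over the lowest background needed 6 IP tags in C4-2B replicate 1 and 4 in each other list.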

Other observations

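Of the 104 peaks in the spans, 3 lay in no merged region. In ITGA5, MDV-R replicates 2 and 4 had a peak with nearly the same summit in an intron near the 3′ end, with fold enrichments of 7.45 and 11.7 on 23 and 25 tags, and no C4-2B list had one. In SDC1, MDV-R replicate 4 had an intronic peak with a fold enrichment of 5.59 on 17 tags. The peak over the SDC1 3′UTR was 2470 to 2644 nt long in the MDV-R lists and 1178 to 2556 nt in C4-2B, where 3 of the 4 lists broke the region into separate peaks.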
